A study of Homo sapiens with 6 samples.

Results

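The 57 genes described here encode the proteins that license origins of DNA replication, unwind and copy DNA at the fork, supply its nucleotides and restore chromatin marks behind it. They were taken by name from the 18417 genes that had a probe set with exactly 1 gene symbol on the array, and all 57 were found, on 59 of 19460 such probe sets. The list was drawn up by name, but with earlier results of these data known. CLSPN and UHRF1 have 2 probe sets each, and the one with the higher mean level stands for the gene in counts and medians. The other one is given beside it. RNA came from U2OS, a human line derived from an osteosarcoma, and was measured on 6 arrays in 3 groups of 2. The first group received siRNA that targeted H3.X together with H3.Y and is called the combined knockdown, the second received siRNA against H3.Y alone, and the third received siRNA against luciferase, a gene that these cells lack, as the control. H3.X and H3.Y are primate-specific variants of histone H3. All groups were grown in DMEM with FCS, were given 2 rounds of transfection with oligofectamine and were harvested 4 days after transfection. The labels describe the arrays of a group as biological replicates but not how the cultures were kept apart, so a p-value speaks only of the spread from array to array, which may be technical, and 2 arrays a group limit the precision of every value. The comparisons ask how transcripts differ when H3.X and H3.Y are targeted. Probe sets named for either of the 2 target genes numbered 0 in the annotation used, so the knockdown itself was not analysed here.

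A replication origin is bound by the origin recognition complex (ORC), onto which CDC6 and CDT1 load the MCM2-7 helicase in G1 phase. In S phase the kinase CDC7 with its activator DBF4 turns the loaded helicase on, CDC45 and the GINS complex join it, and the polymerases, the sliding clamp PCNA and its loader RFC follow the opened fork. Many of these genes are transcribed periodically, with a peak near the G1/S boundary under the control of E2F transcription factors, so in growing cell lines their transcripts follow how much of the culture is cycling. In a bulk culture, fewer cells in that stage and less RNA per cell cannot be told apart.

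Array medians lay between 5.1 and 5.14 log2 units. Arrays of a group correlated with r of 0.992 for the combined knockdown, 0.986 for H3.Y siRNA and 0.991 for luciferase across all 33297 probe sets. Of 7 measured bone and mesenchymal markers, VIM, SPARC, COL1A1 and CDH2 lay between 8.20 and 11.55 log2 units over the 6 arrays, while RUNX2, COL1A2 and TWIST1 lay between 4.78 and 5.89, and 5 blood markers lay between 1.89 and 5.35. The 7 had median differences from luciferase of log2 0.48 in the combined knockdown, where 1 was called higher, and 0.02 after H3.Y siRNA, where 0 were called, and the blood markers had 0.13 (combined) and 0.19 (H3.Y) with 0 calls. Of 6 epithelial markers, 1 was called higher in the combined knockdown, EPCAM at log2 2.25 ± 0.18, and 0 were called after H3.Y siRNA; their medians were 0.53 (combined) and -0.37 (H3.Y). The mean level of the 6 was 7.56 to 7.68 in the combined knockdown, 6.46 to 6.65 after H3.Y siRNA and 6.79 to 7.02 with luciferase siRNA, with KRT8 and KRT18 above 9 log2 units on every array. Their part in the results below was not tested. Levels of the 59 probe sets ran from 3.35 to 10.38 log2 units. The lowest were those of DBF4, at 3.35 to 3.83, the dimmer one of UHRF1, at 4.59 to 5.14, and that of HELLS, at 4.27 to 6.2.

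Replication genes lay lower in both knockdowns than in luciferase cells, by a similar median amount, but few single genes passed the test over the whole array. In the combined knockdown, 54 of the 57 genes had a lower mean than in luciferase cells, with a median difference of log2 -0.47 against 0.00 over all probe sets. After H3.Y siRNA 52 of 57 did, with a median of -0.42 against 0.02 over all probe sets. Both comparisons use the same 2 luciferase arrays, so the 2 counts are not independent. Calls were made with limma at an adjusted p under 0.05. In the combined knockdown GINS4, RRM1 and SLBP fell and 0 members rose, where 0.985% of all probe sets were called lower and 0.859% higher. After H3.Y siRNA 0 members were called, where 0.195% of all probe sets were called lower and 0.0841% higher.

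At an unadjusted p under 0.05, 31 members were lower in the combined knockdown and 33 after H3.Y siRNA, and 0 were higher in either. Over all probe sets 8.12% (combined) and 7.66% (H3.Y) were lower by that rule and 7.16% (combined) and 6.21% (H3.Y) were higher, and over the 18109 probe sets at log2 5 or above on at least 2 arrays, where 58 of the 59 members' probe sets lie, 12.7% (combined) and 11.9% (H3.Y) were lower. Both arrays lay below both luciferase arrays for 48 members in the combined knockdown and for 51 after H3.Y siRNA, where 24% and 20% of all probe sets did, and 30.8% and 26.5% of the better measured ones. With any 1 of the 4 arrays of the combined comparison left out, 0 probe sets on the whole array passed, so the loss of these 3 calls there says nothing about the genes. Their differences stayed at log2 -1.65 to -1.57 for GINS4, -1.10 to -1.05 for RRM1 and -0.88 to -0.81 for SLBP with an array left out, and 50 to 54 members still had a lower mean.

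**Figure D1:**
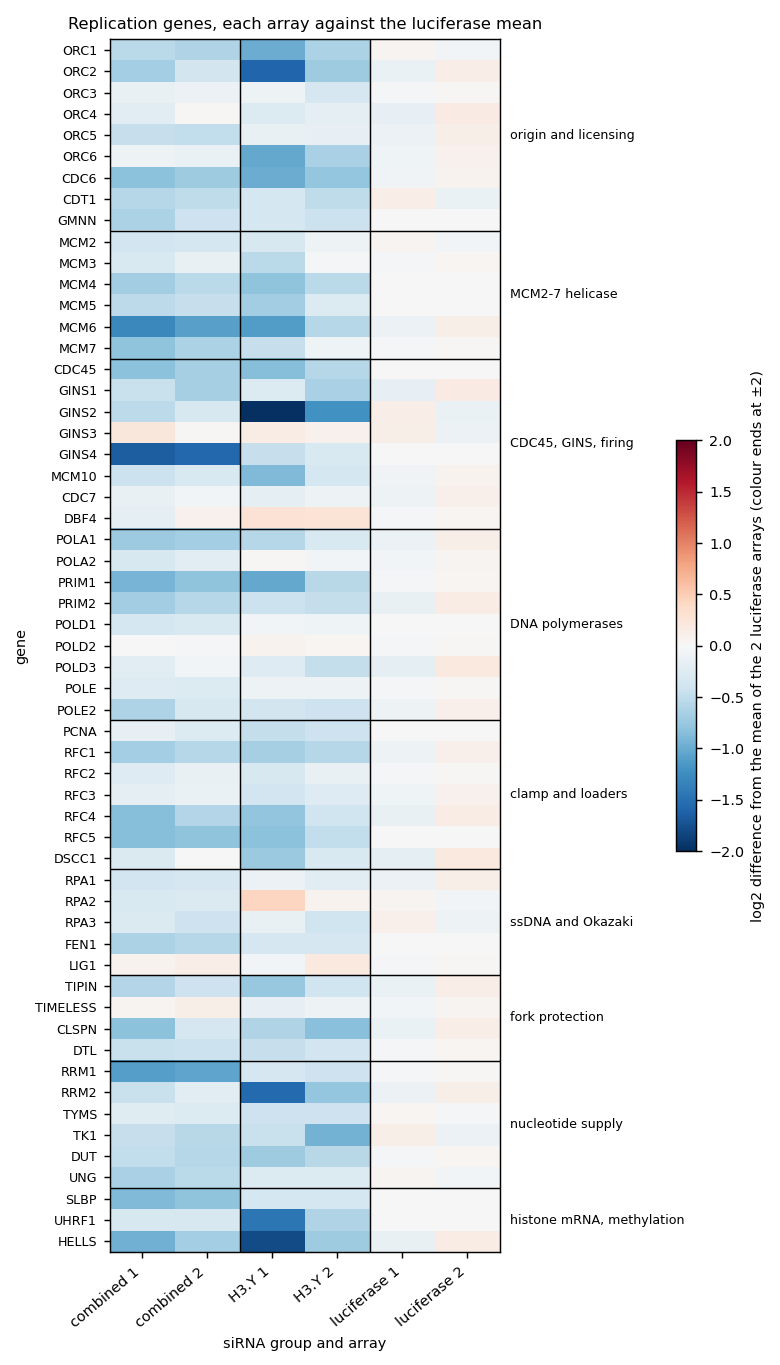
Log2 difference of each of 57 replication genes from the mean of the 2 luciferase arrays (colour), by array (columns, in the order combined knockdown, H3.Y siRNA, luciferase siRNA) and complex (blocks of rows). Most rows are blue on all 4 knockdown arrays, GINS4, MCM6 and RRM1 are darkest in the combined knockdown, and GINS2, HELLS, ORC2, RRM2 and UHRF1 are darkest on the first H3.Y array.

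The median over the 57 genes, taken on each array against the luciferase mean, was -0.46 and -0.36 in the combined knockdown, -0.42 and -0.39 after H3.Y siRNA and -0.03 and 0.03 on the luciferase arrays. Each of the 4 knockdown arrays thus lay well outside the gap between the luciferase arrays. For 10 housekeeping genes the same medians were -0.08 and -0.05 in the combined knockdown, -0.02 and -0.21 after H3.Y siRNA and -0.04 and 0.04 with luciferase siRNA. Single genes of these 10 differed by log2 -0.78 to 0.54 (combined) and -0.45 to 0.35 (H3.Y), and 0 were called in either. For 20 mitotic genes the array medians were -0.78 and -0.56 in the combined knockdown, -0.49 and -0.44 after H3.Y siRNA and -0.10 and 0.10 with luciferase siRNA. Mitotic genes thus lay lower on the same 4 arrays. Of the 20, 3 were called lower in the combined knockdown and 0 after H3.Y siRNA, where 0.985% and 0.195% of all probe sets were. The part of the mitotic genes in the result was not tested. By complex, the medians in the combined knockdown ran from log2 -0.22 for the clamp and its loaders to -0.56 for the MCM2-7 helicase and -0.82 for the group of SLBP, UHRF1 and HELLS. After H3.Y siRNA they ran from -0.16 for single-strand binding and Okazaki fragment genes to -0.53 for clamp and loaders and -1.02 for SLBP, UHRF1 and HELLS. In that last group of 3 the median is the value of a single gene, HELLS in the combined knockdown and UHRF1 after H3.Y siRNA. Its array medians were -0.88 and -0.67 (combined) and -1.44 and -0.60 (H3.Y).

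**Figure D2:**
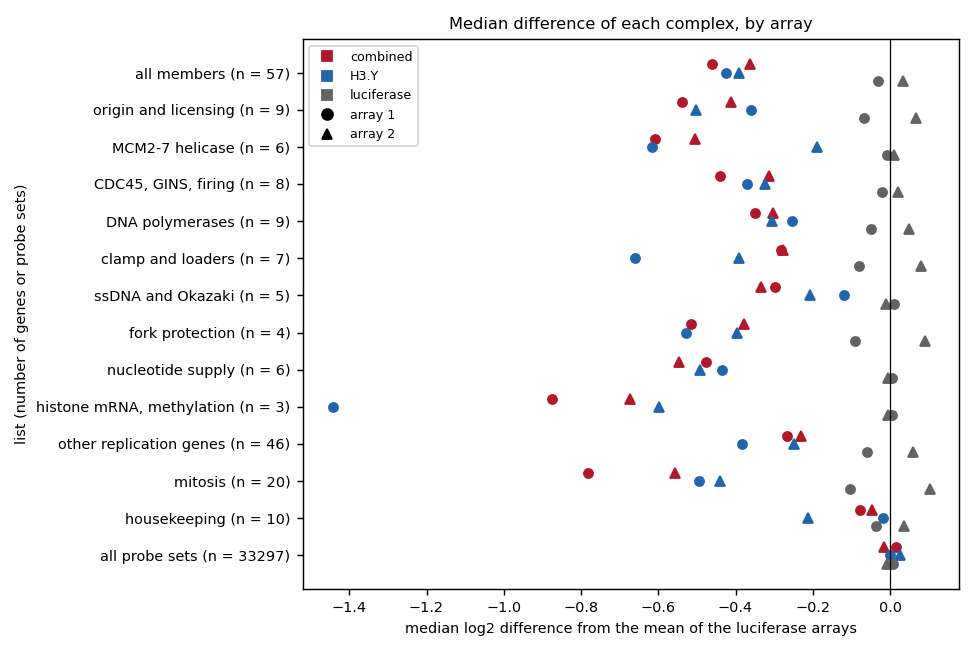
Median log2 difference from the luciferase mean (horizontal axis) of each complex, of other gene lists and of all probe sets (rows), with 1 point per array; colour gives the siRNA group and shape the array number. The 4 knockdown points of the 57 members lie between -0.46 and -0.36, and those of all probe sets near 0.

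Promoter letters were examined because many of these genes are known E2F targets. The RefSeq table (GRCh38.p14) held 69 windows, from 250 bases before to 50 after a listed gene start, for 50 of the 57 genes; some genes have several windows, which can overlap. E2F sites were searched on both strands as TTTGGCGC, TTTCGCGC, TTTCCCGC or TTTGCCGC. They were found in 28 of the 69 windows (40.6%), against 3.31% of 35116 windows of all genes and 4.86% of 14117 windows of genes with a probe set at log2 5 or above on at least 2 arrays. The NF-Y box CCAAT was found in 55.1%, against 34.6% and 34.0%. The Sp1 box GGGCGG was found in 75.4%, against 45.0% and 66.1%. The CHR element, TTTGAA or TTCGAA, which is known from mitotic promoters, was found in 7.25%, against 16.4% and 11.5%. A match is a description of the letters and not a bound site.

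The 27 genes with an E2F match had a median difference of log2 -0.44 in the combined knockdown and -0.42 after H3.Y siRNA, and the 23 without had -0.51 (combined) and -0.45 (H3.Y). The medians with and without E2F letters thus lay close together in both comparisons. Only the exact spellings above were searched, so the lack of a match does not show the lack of an E2F site. The 31 genes with CCAAT had medians of -0.52 (combined) and -0.61 (H3.Y), and the 19 without had -0.33 (combined) and -0.23 (H3.Y). These medians are given with no test.

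**Figure D3:**
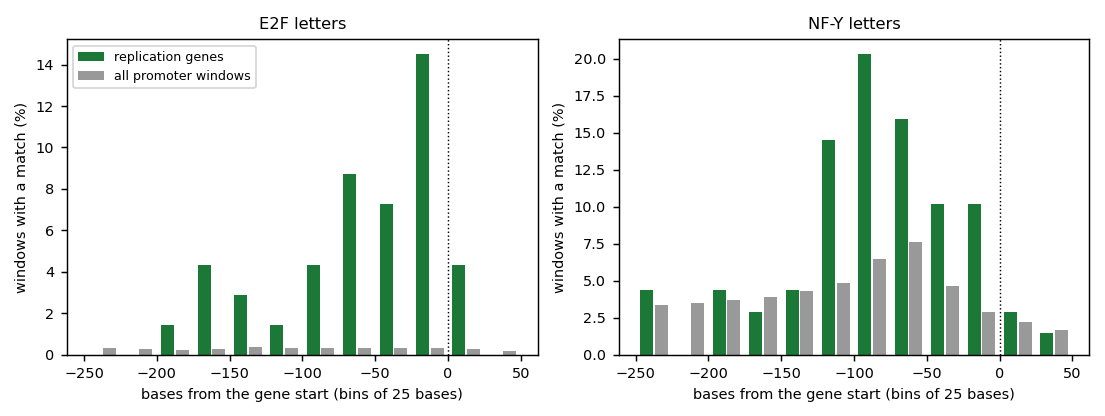
Share of promoter windows (vertical axis, percent) with an E2F (left) or NF-Y (right) match in each bin of 25 bases by distance from the gene start (horizontal axis), for the 69 windows of replication genes (green) and for all 35116 windows (grey). E2F matches peak at 14.5% of member windows in the last bin before the start, and CCAAT at 20.3% in the bin that begins 100 bases before it.

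The bases before the first listed start are shown for the called genes RRM1 and SLBP, for RRM2, the partner of RRM1, and for MCM6, the helicase subunit with the largest difference; the last pair was added after values were seen. Capitals mark E2F or CCAAT letters on either strand. In MCM6 the spelling TTTGGCGC overlaps the reverse of TTTCGCGC at both places, which gives 4 matches, and 2 CCAAT boxes lie nearby. RRM2 shows 3 CCAAT boxes, RRM1 shows 1, and SLBP shows 0 of either. Sequences are from RefSeq, GRCh38.p14, 5′ to 3′ along the gene.
RRM1, chr11:4094435-4094684, plus strand: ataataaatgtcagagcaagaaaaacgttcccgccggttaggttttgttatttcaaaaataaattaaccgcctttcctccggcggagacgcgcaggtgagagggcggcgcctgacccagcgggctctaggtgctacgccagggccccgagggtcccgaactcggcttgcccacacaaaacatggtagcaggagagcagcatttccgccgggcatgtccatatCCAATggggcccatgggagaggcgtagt
SLBP, chr4:1712320-1712569, minus strand: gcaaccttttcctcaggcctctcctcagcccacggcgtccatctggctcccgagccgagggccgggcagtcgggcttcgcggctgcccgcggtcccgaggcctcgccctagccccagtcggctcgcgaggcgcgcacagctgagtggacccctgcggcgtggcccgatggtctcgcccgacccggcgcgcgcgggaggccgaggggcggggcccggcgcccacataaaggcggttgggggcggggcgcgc
RRM2, chr2:10122489-10122738, plus strand: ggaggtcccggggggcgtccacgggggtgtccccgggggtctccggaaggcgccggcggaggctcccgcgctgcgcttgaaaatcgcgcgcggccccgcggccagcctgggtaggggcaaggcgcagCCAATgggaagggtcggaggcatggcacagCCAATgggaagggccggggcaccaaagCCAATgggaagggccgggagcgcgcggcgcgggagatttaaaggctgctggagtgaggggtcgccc
MCM6, chr2:135876444-135876693, minus strand: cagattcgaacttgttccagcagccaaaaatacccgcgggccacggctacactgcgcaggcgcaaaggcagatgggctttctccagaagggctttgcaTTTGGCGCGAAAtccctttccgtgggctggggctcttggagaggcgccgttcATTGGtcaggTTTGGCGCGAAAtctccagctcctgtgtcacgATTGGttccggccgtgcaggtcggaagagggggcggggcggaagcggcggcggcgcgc

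The origin recognition and licensing genes showed 0 calls in either comparison with luciferase, although all 9 had lower means in both. CDC6, the ATPase that loads the helicase, had the smallest p of this group. Its levels were 8.86 and 8.98 log2 units in the combined knockdown, 8.70 and 8.91 after H3.Y siRNA, and 9.62 and 9.76 with luciferase siRNA. Both knockdowns lay below luciferase without overlap, by log2 -0.77 ± 0.14 in the combined knockdown (SE, n = 2 arrays per group, adjusted p = 0.062) and -0.88 ± 0.14 after H3.Y siRNA (adjusted p = 0.081). Neither passed, and CDC6 was called under 3 of 12 alternatives in the combined knockdown and under 2 of 12 after H3.Y siRNA. ORC1, the largest ORC subunit and the one whose level is known to oscillate in human cells, had 7.33 and 7.26 on the combined-knockdown arrays, 6.88 and 7.23 on the H3.Y arrays and 7.93 and 7.81 on the luciferase arrays. Its differences were -0.57 ± 0.16 (combined) and -0.81 ± 0.16 (H3.Y), with adjusted p of 0.16 (combined) and 0.11 (H3.Y). The other ORC subunits did not share 1 pattern. ORC2 differed by -0.52 in the combined knockdown and -1.14 after H3.Y siRNA, and ORC6, which joins the core complex loosely, by -0.12 (combined) and -0.84 (H3.Y). ORC3, ORC4 and ORC5 lay between -0.48 and -0.10 in the combined knockdown and between -0.23 and -0.16 after H3.Y siRNA. CDT1 differed by -0.54 (combined) and -0.43 (H3.Y), and its inhibitor geminin (GMNN) by -0.52 (combined) and -0.40 (H3.Y).

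All 6 subunits of the MCM2-7 helicase, the ring that opens the double helix, had lower means in both knockdowns, but 0 were called. On every subunit both arrays of each knockdown lay below both luciferase arrays, where 24% (combined) and 20% (H3.Y) of all probe sets did. MCM6 had the largest difference. Its levels were 7.77 and 7.97 log2 units in the combined knockdown, 7.95 and 8.49 after H3.Y siRNA, and 8.94 and 9.18 with luciferase siRNA. The difference was log2 -1.19 ± 0.21 in the combined knockdown, 2.28-fold lower (adjusted p = 0.055), and -0.84 ± 0.21 after H3.Y siRNA (adjusted p = 0.17). MCM6 was called in the combined knockdown with a replicate block, the 4 arrays compared alone, the filter at log2 5 or an intensity trend. Adjusted p there was 0.024 to 0.038. It was not called with quantile normalization (adjusted p = 0.071) or median centring (adjusted p = 0.052). MCM4 levels were 8.02 and 8.18 on the combined-knockdown arrays, 7.92 and 8.18 on the H3.Y arrays and 8.73 and 8.71 on the luciferase arrays. It differed by nearly the same amount in both knockdowns, -0.62 ± 0.15 (combined) and -0.67 ± 0.15 (H3.Y). MCM7 differed by -0.72 in the combined knockdown and -0.28 after H3.Y siRNA, MCM5 by -0.49 (combined) and -0.48 (H3.Y), MCM2 by -0.36 (combined) and -0.21 (H3.Y), and MCM3 by -0.23 (combined) and -0.29 (H3.Y). Subunits of 1 ring thus differed from luciferase by amounts from -0.23 to -1.19 in the combined knockdown and from -0.21 to -0.84 after H3.Y siRNA. The first H3.Y array lay below the second on all 6 subunits, with array medians of -0.62 and -0.19 against luciferase. The first combined-knockdown array also lay below the second on all 6, with a smaller gap between medians of -0.61 and -0.50.

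Within the GINS complex, a ring of 4 subunits that joins CDC45 to the helicase, the subunits that lay furthest from luciferase differed between the knockdowns. GINS4 levels were 6.36 and 6.45 log2 units in the combined knockdown, 7.54 and 7.71 after H3.Y siRNA, and 8.02 and 8.01 with luciferase siRNA. The groups did not overlap, and the combined knockdown lay furthest down. GINS4 fell 3.05-fold in the combined knockdown (log2 -1.61 ± 0.13 SE, n = 2 per group, adjusted p = 0.013), against -0.38 ± 0.13 after H3.Y siRNA (adjusted p = 0.28). GINS2 levels were 7.35 and 7.56 log2 units in the combined knockdown, 5.52 and 6.67 after H3.Y siRNA, and 8.01 and 7.75 with luciferase siRNA. The 2 H3.Y arrays were the lowest and stood 1.15 log2 units apart, more than for any other member. GINS2 differed by -1.78 ± 0.35 after H3.Y siRNA (3.44-fold lower, adjusted p = 0.11) and by -0.42 ± 0.35 in the combined knockdown (adjusted p = 0.71). Its difference after H3.Y siRNA was log2 -2.35 without the second H3.Y array and -1.21 without the first. GINS1 differed by -0.56 (combined) and -0.46 (H3.Y), whereas GINS3 had 0.12 in both, with overlapping groups.

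CDC45 differed by log2 -0.74 ± 0.15 in the combined knockdown and -0.71 ± 0.15 after H3.Y siRNA, at adjusted p of 0.072 (combined) and 0.13 (H3.Y). MCM10, a helicase activator outside the ring, differed by -0.37 (combined) and -0.61 (H3.Y). The kinase CDC7 differed by -0.10 (combined) and -0.14 (H3.Y), and its activator DBF4 by -0.06 (combined) and 0.28 (H3.Y) at the low levels given above.

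Of the 9 genes for DNA polymerases alpha, delta and epsilon, 9 had lower means in the combined knockdown and 8 after H3.Y siRNA, and 0 were called. The 4 genes of the polymerase alpha-primase complex, which starts each new strand with an RNA primer, included the 3 largest differences of this group in the combined knockdown. The catalytic primase subunit PRIM1 had 8.33 and 8.46 log2 units in the combined knockdown, 8.24 and 8.71 after H3.Y siRNA, and 9.23 and 9.31 with luciferase siRNA. It differed by log2 -0.87 ± 0.18 (combined) and -0.79 ± 0.18 (H3.Y), with adjusted p of 0.081 (combined) and 0.15 (H3.Y). POLA1, the catalytic subunit of polymerase alpha, had 6.87 and 6.92 on the combined-knockdown arrays, 7.03 and 7.30 on the H3.Y arrays and 7.48 and 7.72 on the luciferase arrays. It differed by -0.71 ± 0.16 (combined) and -0.44 ± 0.16 (H3.Y), both groups below luciferase without overlap. PRIM2 differed by -0.63 (combined) and -0.45 (H3.Y), and POLA2 by -0.27 (combined) and -0.02 (H3.Y). The delta subunit POLD2 showed -0.01 (combined) and 0.06 (H3.Y), POLD1 -0.33 (combined) and -0.07 (H3.Y), and POLD3 -0.13 (combined) and -0.37 (H3.Y). For polymerase epsilon, the catalytic POLE differed by -0.26 (combined) and -0.10 (H3.Y) and POLE2 by -0.47 (combined) and -0.39 (H3.Y).

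The sliding clamp PCNA, which tethers polymerases to DNA, differed by log2 -0.22 ± 0.13 in the combined knockdown and -0.44 ± 0.13 after H3.Y siRNA at adjusted p of 0.52 (combined) and 0.2 (H3.Y). Among subunits of the clamp loader RFC, the smallest p belonged to RFC5 and RFC1. RFC5 levels were 7.16 and 7.21 log2 units in the combined knockdown, 7.18 and 7.52 after H3.Y siRNA, and 8.02 and 8.0 with luciferase siRNA. RFC1, the large subunit, had 8.46 and 8.57 on the combined-knockdown arrays, 8.48 and 8.57 on the H3.Y arrays and 9.04 and 9.24 on the luciferase arrays. Both genes lay below luciferase in both knockdowns without overlap, RFC5 by -0.82 ± 0.15 (combined) and -0.66 ± 0.15 (H3.Y) and RFC1 by -0.63 ± 0.14 (combined) and -0.61 ± 0.14 (H3.Y). Neither was called, at adjusted p of 0.062 (combined) and 0.15 (H3.Y) for RFC5 and 0.092 (combined) and 0.15 (H3.Y) for RFC1. RFC4 differed by -0.72 (combined) and -0.59 (H3.Y), RFC2 by -0.21 (combined) and -0.23 (H3.Y), and RFC3 by -0.17 (combined) and -0.32 (H3.Y). DSCC1, part of an alternative loader that also serves sister chromatid cohesion, differed by -0.14 (combined) and -0.53 (H3.Y).

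FEN1, the nuclease that trims Okazaki fragment flaps, had 8.43 and 8.48 log2 units in the combined knockdown, 8.72 and 8.71 after H3.Y siRNA, and 9.06 and 9.04 with luciferase siRNA. The 3 groups did not overlap and stood in the same order as for GINS4, with differences of log2 -0.60 ± 0.12 in the combined knockdown (adjusted p = 0.077) and -0.34 ± 0.12 after H3.Y siRNA (adjusted p = 0.3). LIG1, the ligase that seals the same fragments, differed by 0.10 (combined) and 0.07 (H3.Y). RPA1, the large subunit of the single-strand binding complex, had 7.91 and 7.96 on the combined-knockdown arrays, 8.18 and 8.09 on the H3.Y arrays and 8.18 and 8.41 on the luciferase arrays. Its differences were -0.36 ± 0.14 (combined) and -0.16 ± 0.14 (H3.Y), and the luciferase arrays stood 0.22 apart. RPA3 differed by -0.36 (combined) and -0.28 (H3.Y). RPA2 differed by -0.30 in the combined knockdown and 0.25 after H3.Y siRNA, and the difference between the knockdowns was -0.55 ± 0.16 (adjusted p = 0.12).

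Claspin (CLSPN) carries the checkpoint signal from ATR to CHK1 at the fork. Its probe set with the higher mean gave 7.83 and 8.31 log2 units in the combined knockdown, 8.05 and 7.82 after H3.Y siRNA, and 8.52 and 8.78 with luciferase siRNA. The differences were log2 -0.58 ± 0.21 (combined) and -0.71 ± 0.21 (H3.Y) there, and -0.28 ± 0.13 (combined) and -0.34 ± 0.13 (H3.Y) on its other probe set, in the same direction. DTL, the substrate receptor that directs CDT1 to degradation, had 8.56 and 8.59 on the combined-knockdown arrays, 8.55 and 8.63 on the H3.Y arrays and 8.97 and 9.05 on the luciferase arrays. DTL differed by -0.44 ± 0.13 (combined) and -0.42 ± 0.13 (H3.Y), at adjusted p of 0.17 (combined) and 0.21 (H3.Y). The fork protection partners had unlike values, with TIPIN at -0.50 (combined) and -0.58 (H3.Y) and TIMELESS at 0.09 (combined) and -0.13 (H3.Y). The difference between the partners was not tested.

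Ribonucleotide reductase makes deoxynucleotides from ribonucleotides and needs both RRM1, its catalytic subunit, and RRM2, which holds the radical and is known to be periodic. RRM1 levels were 8.29 and 8.34 log2 units in the combined knockdown, 9.06 and 8.97 after H3.Y siRNA, and 9.36 and 9.42 with luciferase siRNA. RRM1 fell 2.11-fold in the combined knockdown (log2 -1.08 ± 0.13, adjusted p = 0.021) and differed by -0.38 ± 0.13 after H3.Y siRNA (adjusted p = 0.26). RRM2 levels were 8.06 and 8.30 log2 units in the combined knockdown, 6.96 and 7.73 after H3.Y siRNA, and 8.38 and 8.63 with luciferase siRNA. Here the H3.Y arrays were the lowest, 0.77 apart, and the differences were -0.33 ± 0.26 in the combined knockdown (adjusted p = 0.69) and -1.16 ± 0.26 after H3.Y siRNA (adjusted p = 0.15). DUT, which removes dUTP from the nucleotide pool, had 6.21 and 6.14 on the combined-knockdown arrays, 6.0 and 6.15 on the H3.Y arrays and 6.66 and 6.75 on the luciferase arrays. It differed by -0.53 ± 0.13 (combined) and -0.63 ± 0.13 (H3.Y), without overlap with luciferase in either. The uracil glycosylase UNG differed by -0.59 (combined) and -0.27 (H3.Y), thymidylate synthase (TYMS) by -0.26 (combined) and -0.42 (H3.Y), and thymidine kinase (TK1) by -0.51 (combined) and -0.70 (H3.Y).

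SLBP binds the stem-loop at the end of replication-dependent histone mRNAs and is needed to process them. Its levels were 6.75 and 6.82 log2 units in the combined knockdown, 7.28 and 7.28 after H3.Y siRNA, and 7.63 and 7.62 with luciferase siRNA. The arrays of each group lay within 0.07 of each other and the groups did not overlap. SLBP fell 1.79-fold in the combined knockdown (log2 -0.84 ± 0.12, adjusted p = 0.032) and differed by -0.34 ± 0.12 after H3.Y siRNA (adjusted p = 0.29). UHRF1, which brings the maintenance methyltransferase to hemimethylated DNA, had 8.63 and 8.64 on the combined-knockdown arrays, 7.52 and 8.36 on the H3.Y arrays and 8.96 and 8.95 on the luciferase arrays on its brighter probe set. It differed by -0.32 ± 0.27 (combined) and -1.02 ± 0.27 (H3.Y) there, whereas its dimmer probe set, at 4.59 to 5.14 log2 units, gave 0.32 ± 0.16 (combined) and -0.13 ± 0.16 (H3.Y). The 2 probe sets of UHRF1 thus disagree in direction in the combined knockdown, and neither was called. HELLS, a chromatin remodeller that aids DNA methylation, differed by -0.82 ± 0.34 (combined) and -1.25 ± 0.34 (H3.Y), with H3.Y arrays 1.07 apart.

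**Figure D4:**
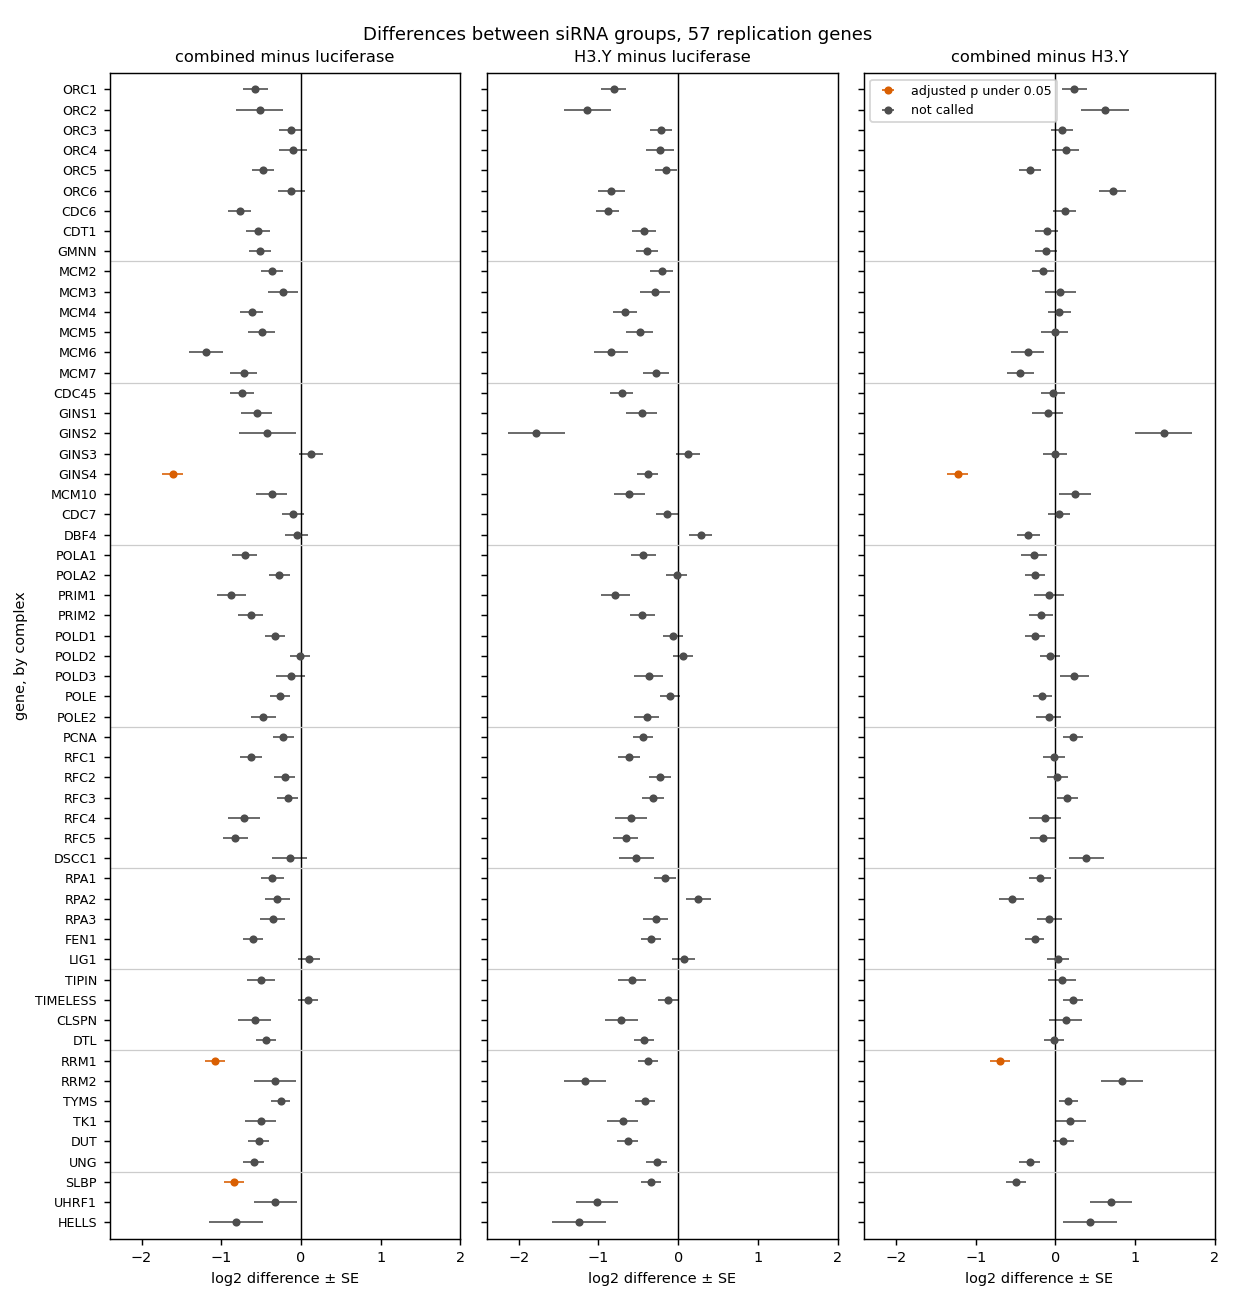
Log2 differences with moderated standard errors (horizontal axis) of the 57 genes (rows, by complex) for the combined knockdown against luciferase, H3.Y siRNA against luciferase and the combined knockdown against H3.Y siRNA. Orange marks an adjusted p under 0.05: GINS4, RRM1 and SLBP on the left, 0 genes in the middle, and GINS4 and RRM1 on the right.

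The direct comparison of the knockdowns sets siRNA that targeted both variants against siRNA that targeted H3.Y alone. The target and the siRNA change together here and in each comparison with luciferase. Their parts in a difference cannot be told apart and were not tested. The members as a group did not separate here, with a median of log2 -0.01 against -0.03 over all probe sets and 31 genes lower and 26 higher in the combined knockdown. GINS4 and RRM1 were called lower in the combined knockdown, where 1.92% of all probe sets were called lower, and 0 members were called higher, where 2.74% were. GINS4 differed by -1.23 ± 0.13 (2.34-fold lower, adjusted p = 0.011) and RRM1 by -0.70 ± 0.13 (1.62-fold lower, adjusted p = 0.036). SLBP was lower by log2 -0.50 ± 0.12 and not called (adjusted p = 0.083). In the other direction, GINS2 was higher in the combined knockdown by 1.36 ± 0.35 (adjusted p = 0.093), RRM2 by 0.84 ± 0.26 (0.15), ORC6 by 0.72 ± 0.17 (0.073), UHRF1 by 0.70 ± 0.27 (0.22) and ORC2 by 0.62 ± 0.30 (0.33). None of these 5 passed. ORC6 had levels of 7.81 and 7.78 on the combined-knockdown arrays, 6.89 and 7.27 on the H3.Y arrays and 7.83 and 8.01 on the luciferase arrays, so its combined-knockdown arrays lay just under the luciferase arrays.

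At an unadjusted p under 0.05, 6 members were lower and 4 higher between the knockdowns, where 9.28% of all probe sets were lower and 9.72% higher. Both combined-knockdown arrays lay below both H3.Y arrays for 18 members and above them for 12, where 25.4% of all probe sets lay below and 21.2% above. RRM1 was not called without any 1 of the 6 arrays, at adjusted p from 0.053 to 0.24, while its difference kept between -0.74 and -0.65. GINS4 was not called when either combined-knockdown array was left out, where few probe sets on the whole array passed. Its difference kept between log2 -1.31 and -1.14 with an array left out.

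**Figure D5:**
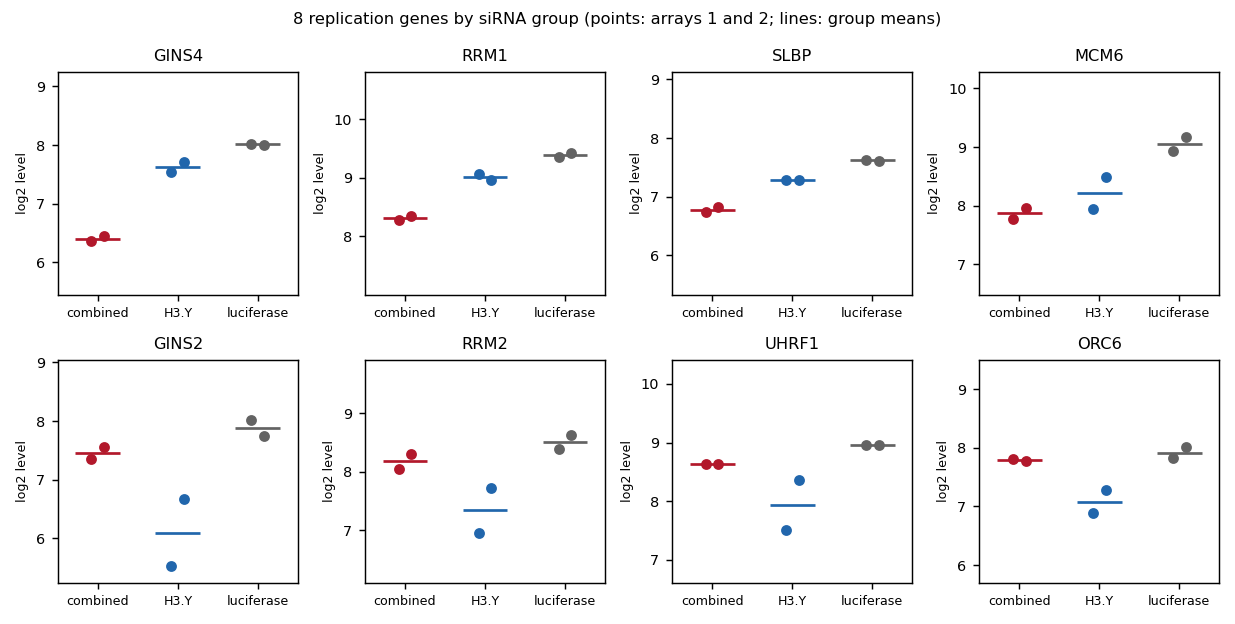
Log2 level (vertical axes, each spanning the same range) of 8 genes chosen after their values were seen, by siRNA group, with 1 point per array and a line at the group mean. GINS4, RRM1, SLBP and MCM6 (top) are lowest in the combined knockdown; GINS2, RRM2, UHRF1 and ORC6 (bottom) are lowest after H3.Y siRNA, where the arrays also lie furthest apart.

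The 2 H3.Y arrays lay further apart than the arrays of the other groups, over the whole array as well as for these genes. Over all probe sets the array-to-array difference within a group had an SD of 0.30 for the combined knockdown, 0.42 for H3.Y siRNA and 0.33 for luciferase, and over the 59 probe sets of members 0.13 for the combined knockdown, 0.33 for H3.Y siRNA and 0.17 for luciferase. A gap over 0.5 log2 units was found for 0 members in the combined knockdown, 8 (14%) on the H3.Y arrays and 0 on the luciferase arrays, against 7.65% (combined), 16.5% (H3.Y) and 9.32% (luciferase) of all probe sets. The 8 were GINS2, HELLS, ORC2, UHRF1, RRM2, MCM6, MCM10 and MCM3, and the first H3.Y array was the lower one for all of them. Among all 57 members the first array was the lower one for 45 (combined), 36 (H3.Y) and 40 (luciferase), so that direction is not particular to H3.Y siRNA. The largest differences of H3.Y siRNA from luciferase, those of GINS2, HELLS, RRM2, ORC2 and UHRF1, therefore rest on arrays that disagree in size though not in direction. On the second array alone they were -1.21, -0.71, -0.78, -0.71 and -0.60. On the first array alone the differences of these genes, in the same order, were -2.35, -1.78, -1.55, -1.58 and -1.44.

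Beyond the 57 genes, 46 measured genes of a list of other replication factors had medians of log2 -0.25 in the combined knockdown and -0.32 after H3.Y siRNA. Of the 46, 38 were lower in each, where 49.8% (combined) and 46.6% (H3.Y) of all probe sets were. In the combined knockdown 2 were called, both lower, where 0.985% of all probe sets were called lower. CHAF1B, a subunit of the chromatin assembly factor that deposits H3 and H4 behind the fork, fell by log2 1.23 ± 0.13 (adjusted p = 0.018), and the checkpoint kinase ATR fell by 0.76 ± 0.13 (adjusted p = 0.045). After H3.Y siRNA 1 was called, where 0.195% of all probe sets were called lower. ATAD5, which unloads PCNA from DNA, fell by 1.32 ± 0.15 (adjusted p = 0.038), with levels of 6.83 and 6.86 log2 units in the combined knockdown, 6.03 and 6.14 after H3.Y siRNA, and 7.28 and 7.54 with luciferase siRNA. Between the knockdowns, CHAF1B was lower in the combined knockdown by log2 -1.01 ± 0.13 and ATAD5 higher by 0.76 ± 0.15, at adjusted p of 0.016 and 0.042. In that comparison 1.92% of all probe sets were called lower and 2.74% higher. POLE4, a small epsilon subunit, was lower in the combined knockdown than after H3.Y siRNA, by -1.02 ± 0.19 (adjusted p = 0.037), with levels of 7.41 and 7.42 on the combined-knockdown arrays, 8.69 and 8.19 on the H3.Y arrays and 7.62 and 7.5 on the luciferase arrays.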

How the data were processed

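Total RNA of 6 U2OS samples was hybridised to Affymetrix arrays, 1 array per sample. The authors deposited 1 table of log2 expression values for 33297 probe sets; per the submitters' processing notes the R package oligo was used, and no source used here gives its settings, the normalization or the probe set definition. The log2 scale was read from the values, which run from 0.69 to 14.02. Probe sets were named through the platform annotation updated by RefSeq gene identifiers: 19460 had 1 symbol, 1754 several and 12083 none, and only the first kind was used.

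Values were used as deposited. limma 3.58.1 (R 4.3.3) was fitted to all 6 arrays with 1 mean per group, giving 3 residual and 3.43 prior degrees of freedom, and each of 3 comparisons had its p-values adjusted across the 33297 probe sets (Benjamini-Hochberg). A gene with 2 probe sets is represented by the one with the higher mean, and both are reported. Differences are log2 with moderated standard errors.

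The members and gene lists were chosen with earlier results of these data known. Values on every array are given for called members and for the 2 members of each complex with the smallest unadjusted p against luciferase; RRM2, ORC6 and the genes of the plot of single subunits were added after values were seen. Of 100 genes in the lists of other replication, mitotic, housekeeping, bone, epithelial and blood genes, 94 were measured and the others were not analysed here. Promoter windows are from RefSeq GRCh38.p14; MCM4, POLD3, DSCC1, RPA3, MCM5, RPA2 and GINS4 have none in the table used. Other settings tried were quantile normalization, median centring, a replicate block and a fit to the 4 arrays of a comparison. Further ones were a filter at log2 5 on at least 2 arrays, an intensity trend, and each array left out. Leaving out an array of the group not compared gives the same fit as the 4 arrays alone. The 12 alternatives of a comparison are thus not all distinct.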

Additional observations from a re-analysis of the deposited data

Results flagged for a closer look

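The differences of the 2 knockdowns from luciferase were themselves different for GINS4 and RRM1, by limma's direct test of the combined knockdown against H3.Y siRNA. GINS4 was lower in the combined knockdown by log2 -1.23 ± 0.13 (adjusted p = 0.011), and RRM1 by -0.70 ± 0.13 (adjusted p = 0.036). Both combined-knockdown arrays lay below both H3.Y arrays for each gene. With both arrays of each compared group kept, GINS4 was called under every other setting. RRM1 was called under all of these but the fit to the 4 arrays compared.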

How the results depend on the processing

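The number of members called depended on the processing, while the direction of their median difference from luciferase did not change under any alternative run. For the combined knockdown against luciferase, 3 members were called as reported, 5 with a replicate block, 6 with only the 4 arrays compared, 13 with the filter on low levels, 8 with an intensity trend, and 0 to 6 when each array was left out. For H3.Y siRNA against luciferase, 0 were called as reported, 1 (CDC6) with the filter and 1 (CDC6) with the trend, 0 with a replicate block, and 0 to 6 with an array left out. Between the knockdowns, 2 were called as reported, 1 with only the 4 arrays compared, 5 with the filter, 2 with a replicate block, and 0 to 5 with an array left out. Over all probe sets the replicate block called 750, 68 and 1778, against 614, 93 and 1554 without it; replicate 1 arrays deviated together with r of 0.28 (combined knockdown and luciferase), 0.22 (H3.Y siRNA and luciferase) and 0.12 (both knockdowns), and the labels give only a shared number. The filter called 1338, 476 and 2558 of 18109 probe sets, the trend 205 for H3.Y siRNA, the 4 arrays alone 0 for H3.Y siRNA and 448 between the knockdowns, and an array left out 0 to 644, 0 to 629 and 12 to 1641.

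The median difference of the members was -0.47 to -0.36 in the combined knockdown and -0.46 to -0.35 after H3.Y siRNA with an array left out, and -0.36 after H3.Y siRNA with quantile normalization. Members lower at an unadjusted p under 0.05, a count chosen after seeing the data, numbered 18 to 38, 17 to 29 and 3 to 6 with an array left out, and members with a lower mean 50 to 54, 51 to 52 and 26 to 36. Differences between the knockdowns that were near 0 changed sign with an array left out, and ran from -0.080 to 0.18 for MCM4, -0.32 to 0.15 for PRIM1, -0.068 to 0.039 for RFC1, -0.33 to 0.0057 for RFC5, -0.050 to 0.023 for DTL and -0.11 to 0.37 for CLSPN. Fewer arrays leave fewer degrees of freedom; the cause of the other changes was not tested. With an array left out, the lone array is assumed to vary like the other groups.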
